A study of Mus musculus with 598 samples.

Results

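The cells described here are the wild type E7.25 mouse embryo cells with the highest levels of 4 genes, Cdh1, Pim2, Dnmt3b and Slc7a3, among cells carrying the Mesp1-GFP reporter signal. They numbered 40 of 598 cells in the series, and were 11.7% of the wild type cells of E7.25. Each cell was given a score, the mean over the 4 genes of log2(CPM + 1), where CPM is the usual depth-scaled unit, a gene's reads relative to all reads on genes in the cell. Within each of 2 sets of libraries, the 20 cells with the highest scores were taken and called high-scoring cells. Almost all remaining cells of each set served as the other cells. Only 7 cells of set 1 and 5 of set 2 with Trh or Chrd at 100 CPM or more, which mark axial mesoderm and endoderm, were left out.

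The series sampled gastrulating embryos at E6.75, as wild type and as 85 knockout cells, and at E7.25, as wild type only. All cells were labelled Mesp1-GFP+ and each was sequenced as its own library. Neither embryos, litters or pools nor the gene knocked out are named in the labels, so each group counts as 1 sample: nothing here was tested and there are no p-values. Their protocol text describes adult bone marrow rather than embryos, and how the reporter was built was not stated. The 2 sets were recognised from the reads alone. Set 1 cells had reads of at least 5 of the 8 genes Foxe1, Dusp15, Kcnk12, Pou3f3, Six3, Vax1, Sox3 and Hoxd13, all other cells formed set 2, and every ratio was taken within a set. A gene is called higher or lower below where summed reads differed at least 2-fold the same way in both sets, with 1 CPM added. All intervals are 95% intervals for counting error only, by the exact Poisson method for summed CPM and by Clopper-Pearson for shares.

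The epiblast is the epithelial layer from which the tissues of the embryo arise. During gastrulation its cells move to the primitive streak, switch on the T-box factor T (Brachyury), exchange the epithelial cadherin Cdh1 for Cdh2 and leave as mesenchyme. Mesp1 is a transcription factor of the first mesoderm to leave. Its reads are not taken here as a sign that a cell had already left. Where the cells lay in the embryo was not measured.

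The score itself is what chose the cells, so the values of its 4 genes are given as a description. Scores of the high-scoring cells ran from 5.47 to 8.56 in set 1, with a median of 6.33, and from 5.41 to 9.57 in set 2, with a median of 7.04. The medians of the other cells were 2.72 and 2.90. No gap separated the groups: the 20th cell had 5.47 and the 21st 5.45 in set 1, and 5.41 and 5.30 in set 2. Within 0.5 of the lowest score taken lay 6 cells inside and 4 outside in set 1, and 6 and 11 in set 2. The group is therefore the upper end of a range of scores. In set 1 the 20th cell had 68.4 CPM of Cdh1, 74.5 of Pim2, 739 of Dnmt3b and 0 of Slc7a3, and the 21st had 47.5, 5.59, 251.5 and 44.7 CPM. The cells left out for Trh or Chrd had median scores of 7.08 and 4.13.

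**Figure D1:**
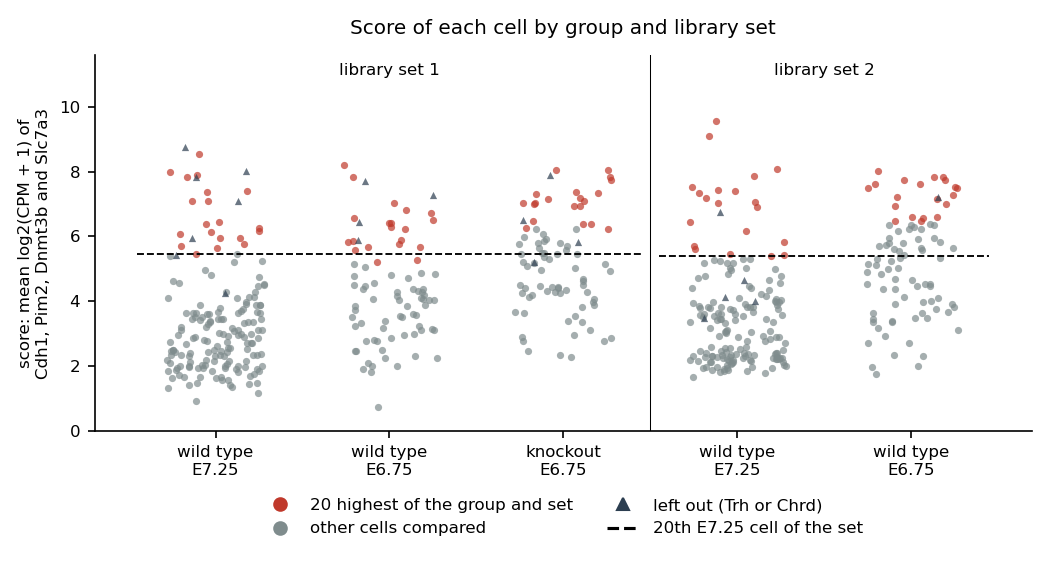
Score of each cell (mean log2(CPM + 1) of Cdh1, Pim2, Dnmt3b and Slc7a3) by group and library set; red points are the 20 highest of each group and set, grey points the other cells, triangles the cells left out for Trh or Chrd, and the dashed line the score of the 20th E7.25 cell (5.47 in set 1, 5.41 in set 2). The E7.25 scores run through the line without a gap, and a larger share of the E6.75 cells lies above it.

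Cdh1 (ENSMUSG00000000303), the cadherin of epithelial adherens junctions, is a protein-coding gene at chromosome 8, 106603351 to 106670246, plus strand (GRCm38). The lowest, median and highest high-scoring cell had 0, 54.2 and 251.9 CPM in set 1 and 0, 144.5 and 480 CPM in set 2. The median other cell had 0 CPM in both sets, with maxima of 77.65 and 172.4 CPM. Cdh1 had no read in 2 high-scoring cells of set 1 and 1 of set 2, which entered through the remaining genes. Pim2 (ENSMUSG00000031155; X, 7878262 to 7883432, plus), a serine/threonine survival kinase, had medians of 176.5 and 159.5 CPM against 1.43 and 0.359 CPM. Dnmt3b (ENSMUSG00000027478; chromosome 2, 153649450 to 153687730, plus), a de novo DNA methyltransferase, was read in every E7.25 cell compared, with medians of 789 and 1076 CPM against 203.3 and 357 CPM. Slc7a3 (ENSMUSG00000031297; X, 101079210 to 101086020, minus), a cationic amino acid transporter, had medians of 56.5 and 28.9 CPM against 0.696 and 0 CPM, and no read in 4 and 5 high-scoring cells.

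Reads on genes ran from 281875 to 1977279 in the high-scoring cells of set 1 (median 1103544) and from 851609 to 3719178 in set 2 (median 2041688), against medians of 746788 and 2294891 in the other cells. Across E7.25 cells the Spearman correlation of score with reads was 0.11 in set 1 and -0.024 in set 2, over all cells that entered the ranking. After thinning every cell to 100000 reads, the same rule took 18 and 17 of the same 20 cells, and the median number of genes was 7219 against 7032.5 in set 1 and 8274.5 against 8278 in set 2. Mitochondrial reads had medians of 4.22% against 4.09% in set 1 and 4.14% against 3.42% in set 2. Y-linked reads were found in 50% of high-scoring and 55.5% of other cells of set 1, and in 0 cells of either kind in set 2.

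Of 9994 genes with at least 5 CPM over the compared cells in each set, 75 were higher (0.750%) and 1.95% lower in high-scoring than in other cells. Because the cells were chosen on their own reads, these counts and all gene values of this comparison describe the chosen cells and are not independent evidence for them.

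The label epiblast-like fitted the cells in part. Pou5f1, the Oct4 pluripotency factor (ENSMUSG00000024406; chromosome 17, 35506018 to 35510772, plus), had 60.3, 477 and 1163 CPM in the lowest, median and highest high-scoring cell of set 1, and 113.3, 674 and 944 CPM in set 2. Medians of the other cells were 166.4 and 217.5 CPM, and 18 high-scoring cells of each set lay above them, although the ranges overlapped. Its log2 ratios of summed CPM were 1.43 and 1.20. An overlapping antisense gene model, Gm19553, cannot be told apart in these counts, since the strand setting of the counting is not given.

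Nanog, a partner of Pou5f1 in the pluripotency network, was the other higher gene of 10 epiblast genes measured, at 23.6 against 7.69 CPM in set 1 and 25.4 against 10.88 CPM in set 2. The mean log2 ratio of Nanog, 1.33, was 0.95 without Cdh1 in the score and 0.87 with 30 cells per set, which ends its call. None of the 10 was lower, and their median log2 ratio was 0.43, beside -0.022 over all genes tested. Sox2, which marks anterior epiblast and neural ectoderm, was read in few cells of either kind. It reached 10 CPM in 0 high-scoring cells of set 1, against 0 of the others, and in 2 of set 2 (10%), against 1.40% of the others, with a log2 ratio of summed CPM of 2.21 in set 2, where 1 cell gave 58.5% of the high-scoring cells' reads. Among high-scoring cells, thinned cells with a read were 0 of 20 in set 1 (0 to 16.8%) and 2 of 20 in set 2 (1.23 to 31.7%). Utf1, a chromatin factor of pluripotent cells, reached 10 CPM in 6 and 7 of 20 high-scoring cells (30% and 35%), against 4.11% and 6.29% of the others. Because Sox2 was found in so few of them and because of the streak genes given next, the cells are called by their score and not by a cell type.

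Some streak genes were higher in the same cells. T (ENSMUSG00000062327; chromosome 17, 8434423 to 8442496, plus) had 50.6, 494 and 1284 CPM in the lowest, median and highest high-scoring cell of set 1 and 26.7, 716 and 2944 CPM in set 2. The other cells had medians of 63.9 and 51.3 CPM and maxima of 847 and 1834 CPM. All 40 high-scoring cells reached 10 CPM, against 69.9% and 67.8% of the others, so the groups overlapped mainly at the upper end of the other cells. The log2 ratios were 1.77 and 1.87. When Cdh1 was left out of the score, their mean of 1.82 became 0.91, which ends the call of T.

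Fst, the secreted activin antagonist follistatin (ENSMUSG00000021765; chromosome 13, 114452290 to 114458951, minus), had medians of 392.2 and 716 CPM against 42.2 and 52.7 CPM. Its lowest high-scoring cells had 52.5 and 34.1 CPM, while the other cells reached down to 0, and the mean log2 ratio of Fst, 1.98, was 1.39 without Cdh1 in the score. Of 11 streak genes measured, 4 were higher and 0 lower, with a median log2 ratio of 0.97. Fgf8, the FGF ligand of the streak, stood at 30.1 against 9.56 CPM and 77.5 against 24.4 CPM. Cdx1, a caudal homeobox factor, stood at 26.7 against 8.88 CPM and 49.9 against 6.53 CPM. Mixl1, a streak homeobox factor, was 2-fold higher in set 1 alone, with log2 ratios of 1.43 and 0.91. Eomes, the T-box factor of early and anterior streak, had ratios of 0.036 and -0.35.

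Mesp1 (ENSMUSG00000030544, chromosome 7, 79792241 to 79793788, minus), the gene after which the reporter is named, was present. The lowest, median and highest high-scoring cell had 202.3, 602 and 1888 CPM in set 1 and 0.663, 250.6 and 1292 CPM in set 2. Other cells had 6.83, 504 and 1755 CPM and 12.8, 449.7 and 2526 CPM, so the ranges overlapped almost entirely. Summed CPM gave 789.5 (777.5 to 802) against 520.2 (516.6 to 524) in set 1 and 444 (438 to 451) against 559 (556 to 561) in set 2, log2 ratios of 0.60 and -0.33 that point in opposite directions. Mesp1 reached 10 CPM in 20 and 18 of the high-scoring cells, and in 17 and 16 of them together with Cdh1. It also reached 10 CPM in 98.6% and 100% of the other cells. Of 12 nascent mesoderm genes 3 were lower, Phlda2, Pdgfra and the heparan sulfate enzyme Hs3st3b1, and 0 higher, and the call of Pdgfra ended without Cdh1 in the score (mean ratio -0.89).

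Several epithelial genes were higher. Of 22 listed, 11 were measured, 6 of these were higher and 1 was lower, with a median log2 ratio of 1.69. Epcam, an adhesion molecule of epithelia (ENSMUSG00000045394; chromosome 17, 87635979 to 87651129, plus), had 21.3, 185.4 and 449.9 CPM in the lowest, median and highest high-scoring cell of set 1 and 13.6, 221.6 and 553 CPM in set 2. Medians of the other cells were 33.4 and 42.9 CPM, below 19 of the 20 high-scoring cells in each set, and their maxima were 393 and 379 CPM. The log2 ratios were 1.90 and 1.92.

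Cldn6, a tight junction claudin of embryonic epithelia (ENSMUSG00000023906; chromosome 17, 23679249 to 23682446, plus), was unevenly spread. Summed CPM was 40.9 (38.2 to 43.8) against 2.28 (2.05 to 2.53) in set 1 and 128.5 (125.1 to 131.97) against 3.69 (3.48 to 3.91) in set 2. The median high-scoring cells had 18.5 and 12.7 CPM, and only 15 and 13 of 20 had a read. One cell gave 37.3% of the Cldn6 reads of the high-scoring cells in set 1 and 1 cell 38.7% in set 2, and without these cells the mean log2 ratio of 4.23 was 3.67.

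The remaining higher genes of the list were the splicing regulator Esrp1 (log2 ratios 2.60 and 2.88), the small GTPase Rab25 (2.65 and 3.03), and the protease inhibitors Spint1 (1.37 and 2.14) and Spint2 (1.60 and 1.78). Esrp1 reached 10 CPM in 10 and 11 of 20 high-scoring cells (50% and 55%) against 10.96% and 10.5% of the others. Cldn7 and the membrane protease St14 were under the level set for counting, but summed to 16.999 against 1.81 CPM and 24.3 against 0.512 CPM for Cldn7, and to 19.8 against 1.44 CPM and 48.1 against 6.87 CPM for St14. The keratins went the other way. Krt18 was lower, at 30.2 against 88.9 CPM and 41.2 against 92.7 CPM, and Krt8 had ratios of -1.05 and -0.49. Occludin (Ocln) and Esrp2 were at or below 3.32 CPM in both kinds of cell.

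Snail and Zeb repressors bind the E-box CACCTG, and several of the higher epithelial genes carry it close to their starts. It was searched on both strands, so also as CAGGTG, in the 250 bases before each RefSeq start (GRCm38.p6). Promoters of 3 higher genes that hold a match are shown as examples, the epithelial Epcam and Spint2 and the streak gene T. E-boxes are in capitals, 5′ to 3′ along the gene's strand.
Epcam, chr17:87635729-87635978, plus strand: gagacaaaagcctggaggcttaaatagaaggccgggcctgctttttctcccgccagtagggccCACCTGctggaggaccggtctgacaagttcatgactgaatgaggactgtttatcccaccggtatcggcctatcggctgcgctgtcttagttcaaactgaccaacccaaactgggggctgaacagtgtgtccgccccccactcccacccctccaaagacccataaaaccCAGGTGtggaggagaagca
Spint2, chr7:29281978-29282227, minus strand: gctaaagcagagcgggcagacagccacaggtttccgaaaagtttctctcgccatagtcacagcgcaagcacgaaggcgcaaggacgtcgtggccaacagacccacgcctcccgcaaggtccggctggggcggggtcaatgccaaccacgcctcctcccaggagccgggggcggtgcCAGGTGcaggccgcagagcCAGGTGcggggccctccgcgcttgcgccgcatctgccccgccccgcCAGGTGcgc
T, chr17:8434173-8434422, plus strand: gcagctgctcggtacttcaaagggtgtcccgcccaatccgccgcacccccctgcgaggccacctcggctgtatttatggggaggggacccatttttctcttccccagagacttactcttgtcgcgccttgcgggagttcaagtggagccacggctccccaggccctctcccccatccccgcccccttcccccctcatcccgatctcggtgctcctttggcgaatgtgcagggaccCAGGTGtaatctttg
Epcam holds 2 matches, the nearer 19 bases before its start, Spint2 holds 3 (74, 55 and 9 bases) and T holds 1 (15 bases). Rab25 and Pim2 hold 2 each, Cldn6 and Dnmt3b 1 each and Cldn7 0. Cdh1, Slc7a3, Esrp1, St14 and Fst had no promoter among those searched. A match was found in 4620 of all 27025 promoters searched (17.1%) and in 992 of the 7483 measured genes with a promoter there (13.3%). Of genes higher in both sets with a promoter, 18 of 56 had a match (32.1%). Of lower genes 18 of 140 had 1 (12.9%), near the share of measured genes. Of the 22 genes of the epithelial list, called or not, 14 had a promoter there and 9 of these a match (64.3%). These are matches of letters, and no binding was measured here. The higher genes were called in cells chosen on their own reads and include the score genes Pim2 and Dnmt3b. The shares were not tested against each other, and neither was any part of these repressors in the differences.

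**Figure D2:**
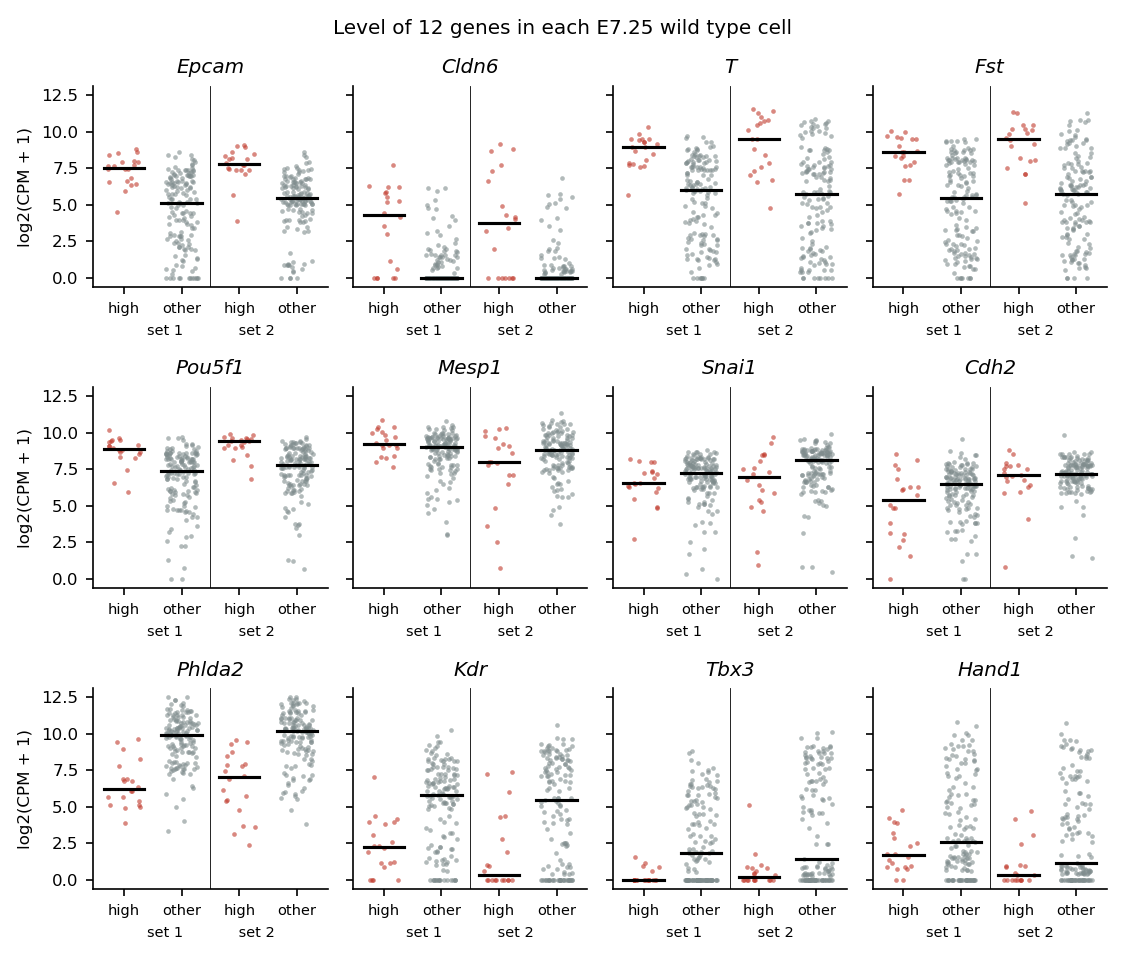
Level of 12 genes as log2(CPM + 1) in each E7.25 wild type cell, for the 20 high-scoring cells (red) and the other cells (grey) of each library set; black bars are medians. Epcam, T, Fst and Pou5f1 are high in nearly every high-scoring cell, Cldn6 in some of them, and Mesp1, Snai1 and Cdh2 overlap between the groups. Phlda2 and Kdr are lower in high-scoring than in other cells. Tbx3 and Hand1 are low in most cells of both groups and reach high levels only among the other cells.

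A few genes of the mesenchymal transition were lower. Of 12 measured, 3 were lower, 0 higher and 9 neither, with a median log2 ratio of -0.50. The lower genes were the receptor Pdgfra (35.3 against 130 CPM and 74.3 against 191.2 CPM), the matrix protein Sparc (103.7 against 298.6 CPM and 80.1 against 236.4 CPM) and the repressor Zeb1 (0.525 against 9.37 CPM and 0.613 against 13.6 CPM). Without Cdh1 in the score the mean ratio of Pdgfra went from -1.60 to -0.89, which ends its call, as did 30 cells per set (-0.84), and that of Zeb1 went from -2.97 to -1.86. Snai1, the repressor of Cdh1, had medians of 92.3 and 125.8 CPM in high-scoring cells against 147.7 and 274.5 CPM, with ratios of -0.42 and -0.54. Cdh2 had ratios of -0.84 and -0.13, and Cdh11 of -0.039 and -0.034. Both Cdh1 and Cdh2 reached 10 CPM in 12 high-scoring cells of set 1 and 17 of set 2.

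Further genes were higher in nearly all high-scoring cells. Apln, the ligand of the apelin receptor, had medians of 39.2 and 99.9 CPM against 0 and 0.328 CPM (log2 ratios 3.78 and 3.36). Prickle1, a planar cell polarity protein, had medians of 185.9 and 152.2 CPM against 2.21 and 13.3 CPM (2.78 and 1.74). Epha1, an ephrin receptor, had medians of 188.7 and 365.5 CPM against 13.7 and 72.5 CPM (1.58 and 1.76), and the antisense gene Zyx overlaps it.

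Gldc, the glycine decarboxylase of the glycine cleavage system, had medians of 53.2 and 74.998 CPM against 1.27 and 3.33 CPM (2.01 and 1.75). Rbm47, an RNA-binding protein, had medians of 15.6 and 55.6 CPM against 1.13 and 1.17 CPM (1.77 and 2.14). For Apln, Prickle1, Epha1, Gldc and Rbm47, 16 to 20 of the 20 high-scoring cells of each set lay above the median of the other cells, and the ranges of all 5 overlapped. Without Cdh1 in the score the mean ratio of Apln went from 3.57 to 2.75 and that of Gldc from 1.88 to 1.13.

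Many genes of extraembryonic and cardiac mesoderm were lower. Extraembryonic mesoderm genes were lower in 7 of 7 measured, with a median log2 ratio of -3.64. Tbx3, a T-box factor of that tissue, had at most 1.96 CPM in any high-scoring cell of set 1 and 34.1 CPM in set 2, where 1 cell gave 82.9% of its reads. Other cells reached 442 and 1096 CPM, with medians of only 2.56 and 1.72 CPM. Hand1, a bHLH factor of extraembryonic and heart-forming mesoderm, stood at 4.92 (4.01 to 5.96) against 114.7 CPM in set 1 and 2.88 (2.39 to 3.43) against 114.7 CPM in set 2. Its medians were 2.20 and 0.277 CPM against 5.09 and 1.28 CPM, so the difference in the sums lay in the upper range of the other cells. Without Cdh1 in the score, mean ratios went from -5.06 to -2.95 for Tbx3 and from -4.59 to -3.59 for Hand1.

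Of 8 cardiac progenitor genes measured, 4 were lower and 0 higher. Myl7, the atrial myosin light chain, had medians of 4.80 and 1.63 CPM in the high-scoring cells against 99.2 and 58.04 CPM. It lay below the median of the other cells in 19 and 20 of 20 high-scoring cells, with log2 ratios of -4.12 and -5.34. When Cdh1 was left out of the score, its mean ratio of -4.73 became -1.65. Kdr, the VEGF receptor of haemato-endothelial progenitors, had medians of 3.76 and 0.269 CPM against 54.2 and 42.1 CPM (mean log2 ratio -2.81, -1.83 without Cdh1 in the score, -3.86 without the 1 cell per set with most reads), and Etv2, a transcription factor of the same lineage, ratios of -2.37 and -3.21. Paraxial mesoderm genes were lower in 2 of 7, Ripply2 (-3.82 and -3.27) and Foxc2 (-2.09 and -2.48), while Tbx6 had ratios of 0.94 and 1.05. For Ripply2, 9 and 7 of 20 high-scoring cells lay above the median of the other cells and 0 below it. Its difference in the sums therefore lay in the upper range of the other cells.

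Phlda2, Igf2 and H19, each known to be imprinted, were lower; no list of imprinted genes was examined. Phlda2, a placental growth restrictor, had medians of 73.2 and 128.1 CPM against 965 and 1160 CPM, and all 40 high-scoring cells lay below the median of the other cells of their set. Igf2, a growth factor, summed to 1.34 against 35.6 CPM and 3.82 against 77.6 CPM. The neighbouring non-coding RNA H19 summed to 4.15 against 102.97 CPM and 5.35 against 112.3 CPM. Prdm6, a SET-domain repressor (log2 ratios -2.90 and -3.63), the scavenger receptor Colec12 (-2.89 and -2.31), the Golgi protein Glipr2 (-1.45 and -2.19) and the Polycomb subunit Pcgf5 (-1.69 and -2.23) were also lower. Without Cdh1 in the score, the mean ratios were -2.20 for Prdm6 (from -3.27), -1.54 for Colec12 (from -2.60) and -1.17 for Glipr2 (from -1.82). Without the cell per set with most Prdm6 reads its ratio was -4.51.

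BMP ligands and response genes were lower in 8 of 11 measured, with a median of -1.74. The ligand Bmp4 stood at 4.54 against 75.9 CPM and 0.542 against 42.5 CPM. The homeobox targets Msx1 (-2.81 and -2.09) and Msx2 (-3.65 and -3.63) and the target Id2 (-2.28 and -2.20) were lower as well, and the mean ratio of Id2, -2.24, was -4.14 without the 1 cell per set with most of its reads. Bmp4 and Msx2 also belong to the extraembryonic mesoderm list, so the lists are not separate counts. In the Nodal pathway 2 of 12 were lower, the co-receptor Cfc1 (-3.32 and -2.27) and the receptor Acvr2a (-1.63 and -1.05). The mean ratio of Acvr2a, -1.34, was -0.91 without Cdh1 in the score and -0.98 with 30 cells per set, which ends its call. In the FGF list Fgf8 was higher and Fgfr2 and Spry1 were lower among 13. The mean ratio of Spry1, -1.67, was -0.14 without Cdh1 in the score and -0.56 with 30 cells per set, which ends its call. None of 12 WNT, 16 glycolysis, 15 S phase or 15 G2/M genes was called in either direction, with list medians of -0.18, 0.085, 0.028 and 0.11. In the DNA methylation and amino acid transporter lists the score genes Dnmt3b and Slc7a3 were the 2 genes called. Fos and Jun, immediate early genes, were the lower 2 of 5 in a list of handling and heat shock responses.

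**Figure D3:**
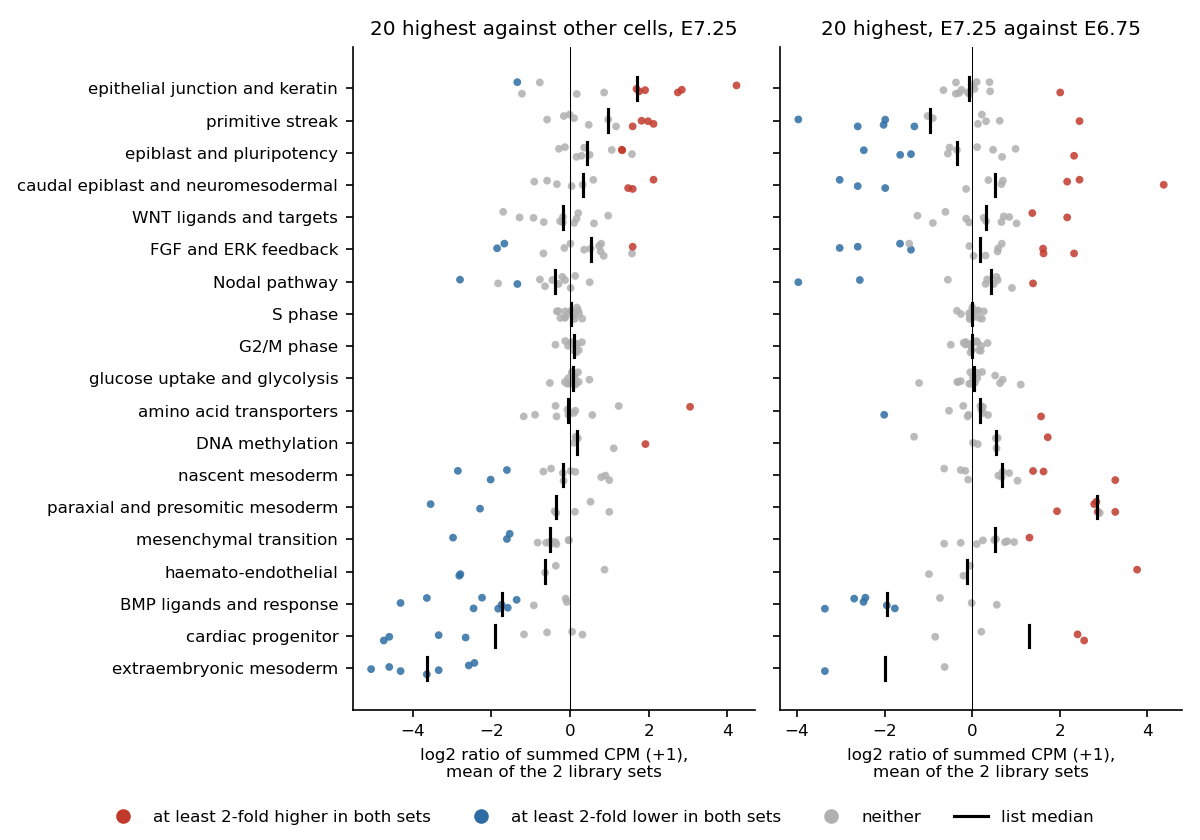
Log2 ratios of summed CPM (+1), mean of the 2 library sets, for the measured genes of 19 lists; left, high-scoring against other E7.25 cells, right, high-scoring cells at E7.25 against E6.75. Points are genes (red, at least 2-fold higher in both sets; blue, at least 2-fold lower; grey, neither) and black bars list medians: the epithelial median is 1.69 on the left and -0.062 on the right, the paraxial median -0.35 and 2.85, and the BMP median -1.74 and -1.95.

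Some endoderm and axial markers were found in a larger share of the high-scoring than of the other cells. Of 12 endoderm and axial genes 2 were measured, Cer1 and Gsc, and neither was called. Foxa2 reached 10 CPM in 0 high-scoring cells of set 1 and 6 of 20 in set 2 (30%), against 0.685% and 4.90% of the others, and Sox17 in 0 and 1, against 0 of the others in either set. Chrd, held under 100 CPM in both kinds of cell by the rule, reached 10 CPM in 20% and 45% of the high-scoring cells against 1.37% and 6.99% of the others. Summed over the endoderm and axial list, the lowest, median and highest high-scoring cell had 0, 29.2 and 112.1 CPM in set 1 and 0, 49.3 and 2760.1 CPM in set 2. The median other cell had 10.8 and 38.7 CPM, and the highest 1478 and 2275 CPM. Apoe, also made outside visceral endoderm, was lower (-1.45 and -1.03), and the visceral endoderm list summed to 17.4, 166.2 and 339.2 CPM and to 33.8, 186.1 and 324.01 CPM, against medians of 183.4 and 260.9 CPM in the other cells. The part of such cells in the differences was not tested. Trophoblast, germ cell and surface ectoderm lists had 2, 3 and 1 measured genes, none of them called. None of the 8 neural genes was measured in both sets. Their list, which includes Sox3 and Six3 of the genes that separate the sets, had reads almost only in set 1. It summed to medians of 1170 CPM in high-scoring and 1526 CPM in other cells there, and to 0.144 and 0 CPM in set 2.

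The 40 cells differed among themselves, most of all in set 2. Nkx1-2, a homeobox gene of caudal epiblast, reached 10 CPM in 8 of 20 high-scoring cells of set 2 (40%) and 1 of 20 in set 1 (5%). Shares of the other cells were 13.3% in set 2 and 4.11% in set 1. Of those 8, 6 also reached 10 CPM of Wnt3a, 5 of Cdx2 and 4 of Foxa2. Wnt3a reached it in 7 cells of each set (35%), against 2.05% and 10.5% of the others. Cdx2 did so in 0 and 6 (0% and 30%), against 8.22% and 11.9% of the others. Hoxb1, the most anterior Hox gene of its cluster, did so in 8 and 12 (40% and 60%), near the 37.7% and 48.3% of the others. In set 1 the high-scoring cells thus held little of Nkx1-2, Cdx2 and Foxa2, and in set 2 a portion held them together. The 2 cells of set 2 with Sox2 at 10 CPM or more were those with the 2 highest scores of the set.

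Spearman correlations over the 20 high-scoring cells of a set show the same unevenness. They are descriptions over cells chosen by Cdh1 among other genes, and the cells share the depth and library method of their set. Cdh1 and Mesp1 had -0.15 in set 1 and -0.75 in set 2, and Cdh1 and Snai1 -0.33 and -0.65. Mesp1 and Snai1 had 0.59 and 0.63. T and Eomes had 0.13 in set 1 and -0.70 in set 2, where 3 of 20 cells had no Eomes read. Cdh1 and Pou5f1 had -0.12 and 0.61. In set 2 Foxa2, read in 7 of 20 thinned cells, had 0.64 with Cdh1, -0.63 with Mesp1 and -0.61 with Snai1. In set 1 it was read in 0 of 20 thinned cells. The pairs given are a selection of those computed, and the part of cells with Foxa2 in the set 2 values was not tested.

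**Figure D4:**
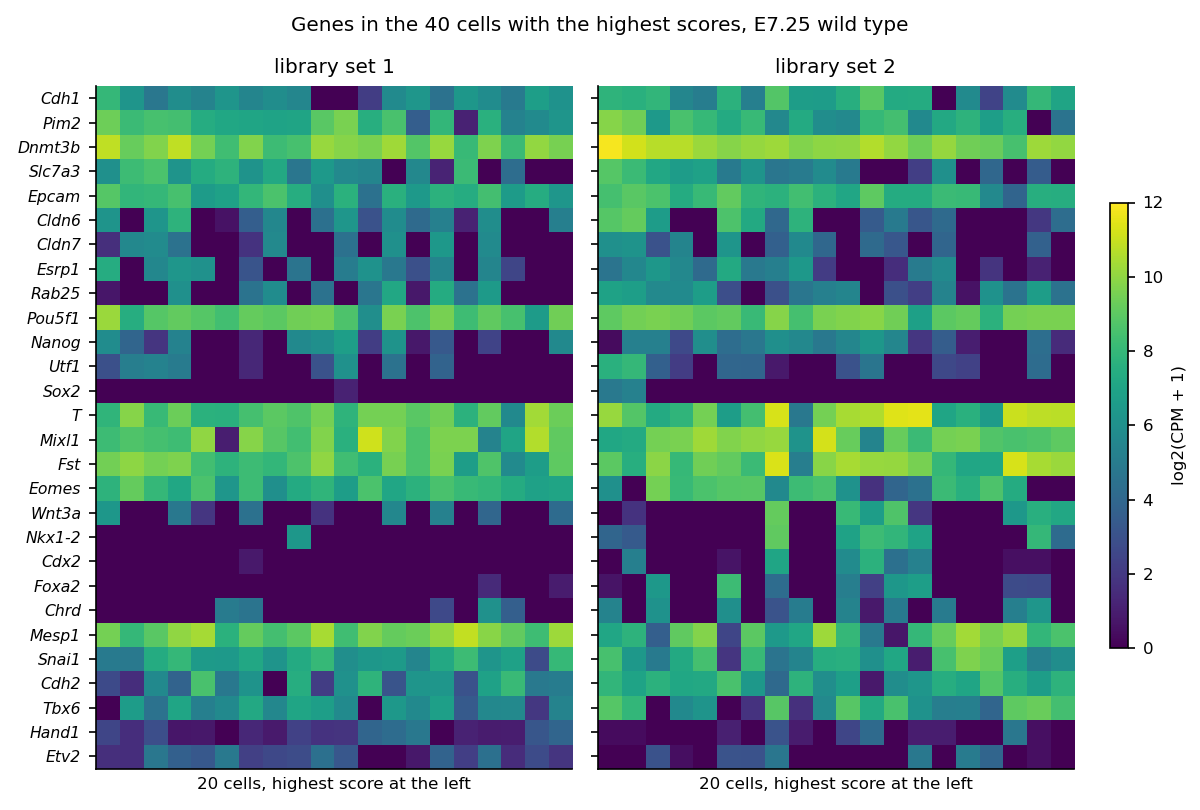
Log2(CPM + 1) (colour) of 28 genes in the 40 high-scoring cells, ordered by score within each library set. Dnmt3b, Pou5f1, T, Mixl1 and Fst are read nearly throughout, Sox2 is above 10 CPM in 2 cells of set 2, and Nkx1-2 reaches 10 CPM in 8 cells of set 2 and 1 of set 1.

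The same rule took 40 cells from the wild type cells at E6.75, 20 per set, with median scores of 6.26 and 7.40. The comparison of these with the E7.25 cells asks how cells taken by the same rule differ between the stages. Their scores were not matched. They ran from 5.22 to 8.22 at E6.75 and from 5.47 to 8.56 at E7.25 in set 1. In set 2 they ran from 6.47 to 8.01 at E6.75 and from 5.41 to 9.57 at E7.25. The 4 score genes again describe the choice: Cdh1 had log2 ratios of E7.25 to E6.75 of -0.072 and 0.75, Pim2 of -0.75 and -0.35, Dnmt3b of 0.42 and -0.16, and Slc7a3 of 1.53 and 1.62. Of 9672 genes measured, 2.05% were higher and 100 lower (1.03%) at E7.25. The deepest of the 20 E6.75 cells of set 1 gave 21.7% of their reads, against 8.07% to 9.44% in the other groups of 20 compared, so a single cell weighs more there. Y-linked reads were in 10 of these 20 cells at E7.25 and 16 at E6.75 in set 1.

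Presomitic genes were higher at E7.25, while caudal genes were split. Of 10 caudal epiblast and neuromesodermal genes measured, Hoxb1, Cdx1 and Wnt3a were higher, Fgf8, Fgf17 and Evx1 were lower and 4 were neither, with a median of 0.52. Hoxb1 (ENSMUSG00000018973; chromosome 11, 96365752 to 96368256, plus) had 0, 1.02 and 195.5 CPM in the lowest, median and highest E7.25 cell of set 1 and 0, 121.5 and 983 CPM in set 2, against 0, 0 and 24.3 CPM and 0, 0.241 and 24.1 CPM at E6.75. Only part of the E7.25 cells carried the difference, since the lower ranges coincided. Tbx6, the T-box factor of presomitic mesoderm (ENSMUSG00000030699; chromosome 7, 126781483 to 126785560, plus), had medians of 50.6 and 71.6 CPM against 0.976 and 0.375 CPM. It was read in 17 and 16 of 20 thinned cells at E7.25 (62.1 to 96.8% and 56.3 to 94.3%) and in 9 and 7 at E6.75 (23.1 to 68.5% and 15.4 to 59.2%). Its log2 ratios were 2.43 and 4.10. Without Cdh1 in the score, the mean ratio of Hoxb1 went from 4.37 to 2.92 and that of Tbx6 from 3.27 to 2.43.

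The paraxial list had 5 of 6 measured genes higher and a median of 2.85, beside 0.027 over all genes. Within E7.25, 0 of its 7 measured genes were higher and 2 lower in high-scoring than in other cells (median -0.35). The stage difference is thus not shown to be particular to high-scoring cells, since the other cells were not compared between the stages. Dll1 and Dll3, Notch ligands of the presomitic mesoderm, stood at 105.96 against 25.4 and 329.7 against 24.2 CPM for Dll1, and at 324.9 against 99.6 and 433 against 94.9 CPM for Dll3. The antisense model A930024N18Rik overlaps Dll1. Foxc1, a forkhead factor of paraxial mesoderm, had ratios of 2.01 and 3.67, and a mean of 2.84 that was 1.98 without the cell per set with most of its reads. Wnt3a (1.11 and 3.23), the WNT effector Lef1 (1.51 and 1.24), Cdx1 (2.72 and 2.18), Lefty2 (1.47 and 1.31) and Fgf3 (1.397 and 1.86) were also higher.

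Fgf4, an FGF ligand of the epiblast and streak, was higher as well, at 143.2 against 26.8 CPM and 34.96 against 6.41 CPM, with 1 cell giving 79.8% of the E6.75 reads in set 1. The imprinted Nnat (2.70 and 3.10), Lhfp (2.20 and 4.44), the ephrin receptor Epha4 (2.12 and 1.21), the membrane-cytoskeleton linker Epb41l3 (1.42 and 1.70), Igdcc3 (1.88 and 2.67) and Ulk4 (4.24 and 3.54) completed the 12 named. At E6.75, 1 cell of set 1 gave 97.8% of the Lhfp reads. Ctnnb1 overlaps Ulk4 on the opposite strand.

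**Figure D5:**
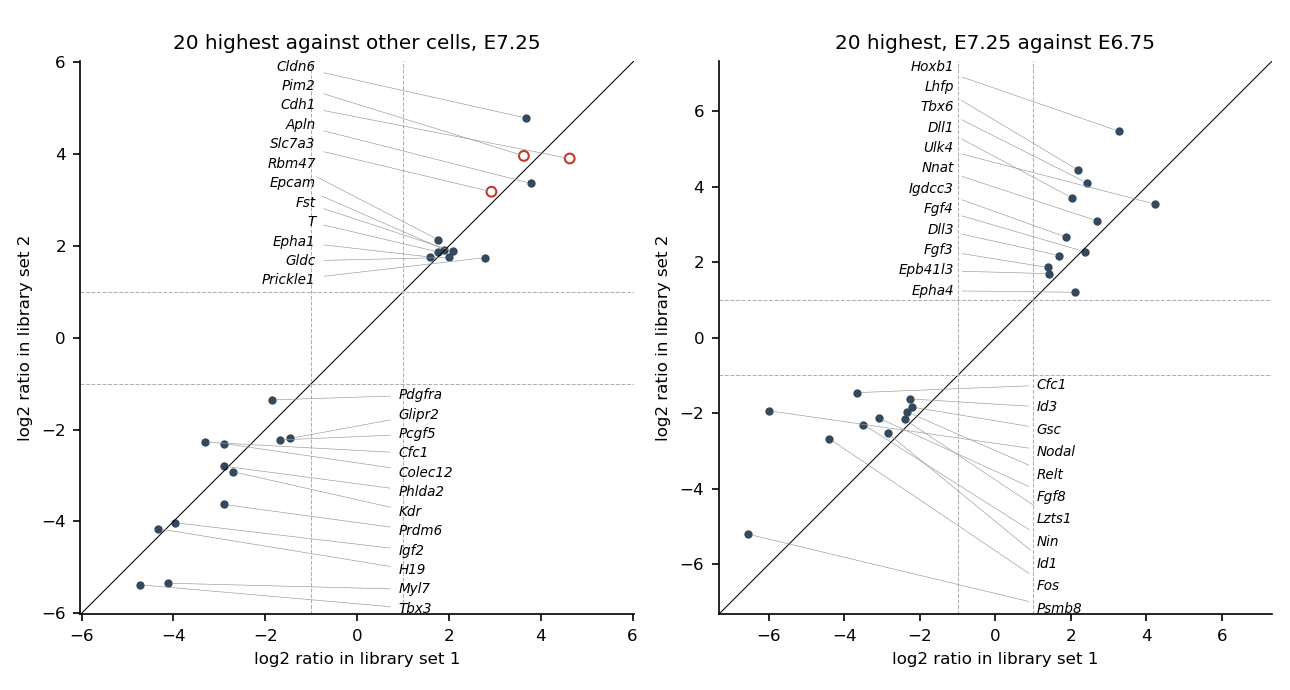
Log2 ratios of genes chosen by the naming rule in library set 1 (x axis) and set 2 (y axis); left, high-scoring against other E7.25 cells, with genes of the score as open red circles, right, high-scoring cells at E7.25 against E6.75. The solid line marks equal ratios and dashed lines 2-fold; by the rule all genes drawn lie past the dashed lines in both sets, with Tbx3 lowest on the left and Psmb8 on the right (-6.55 in set 1, -5.21 in set 2).

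Part of the streak list and most measured BMP genes were lower at E7.25, while the Nodal pathway was mixed. Fgf8 (ENSMUSG00000025219; chromosome 19, 45736798 to 45742915, minus) had medians of 20.4 and 34.6 CPM against 211.5 and 280.4 CPM, with the highest E7.25 cells at 96.2 and 399 CPM and the lowest E6.75 cells at 18.3 and 77.04 CPM. Nodal, the TGF-beta ligand that maintains the streak, summed to 0.0955 (0.0116 to 0.345) against 68.998 CPM in set 1 and 16.1 against 64.4 CPM in set 2. The streak list had 5 of 12 lower, among them Gsc, an organiser homeobox gene (-2.20 and -1.84), and 1 higher, Cdx1. Of 10 Nodal pathway genes measured, Nodal and Cfc1 were lower, Lefty2 was higher and 7 were neither, with a median log2 ratio of 0.42.

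Nanog was lower at E7.25, at 23.6 against 159.7 CPM and 25.4 against 123.8 CPM, as were Fgf5, a marker of the primed epiblast (-1.43 and -1.36), and L1td1 (-1.36 and -1.92). Pou5f1 had ratios of 0.60 and 0.36. Mixl1 was lower (-1.18 and -1.45), while T had -0.11 and 1.37. Of 9 BMP genes measured, 6 were lower and 0 higher. Id1 and Id3, inhibitors of bHLH factors induced by BMP, stood at 58.3 against 428 and 62.2 against 364 CPM for Id1, and at 85.7 against 418 and 180.3 against 556 CPM for Id3.

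Psmb8, an immunoproteasome subunit, summed to 0.907 against 177.4 CPM and 0.283 against 46.4 CPM. At E6.75, 1 cell gave 82.4% of its set 1 reads, and the medians there were 5.18 and 7.61 CPM against 0 at E7.25. Nin, a centrosomal protein (-3.50 and -2.30), Lzts1 (-2.40 and -2.17), Relt, a TNF receptor family member (-2.35 and -1.96), and Cfc1 (-3.67 and -1.46) were lower too.

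Fos, an immediate early gene that responds to handling as well as to signals, stood at 4.11 against 107.2 CPM and 20.8 against 138.5 CPM. Of the 6 immediate early and heat shock genes measured it was the only one called. The part of cell handling in these differences was not tested.

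Epithelial genes differed little between the stages: 1 of 13 measured was higher, St14 (2.30 and 1.72), 0 were lower and the median was -0.062. Cldn6 had ratios of -0.32 and 0.31, Epcam of -0.87 and -0.44. Mesp1 had ratios of 0.83 and 0.56. Of 4 cardiac genes measured, Actc1 and Mef2c were higher, with mean ratios that the leaving out of 1 cell per set took to 1.70 and 1.42. The mesenchymal list had 1 of 10 higher, the repressor Zeb2 (1.60 and 1.02). S phase, G2/M and glycolysis lists again had no gene called.

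Cells with a score as high as that of the 20th E7.25 cell were a smaller share of the E7.25 cells than of the earlier ones. By the rule they were 12.0% of the ranked cells in set 1 and 12.3% in set 2 at E7.25. At E6.75 they were 18 of 79 wild type cells in set 1 (22.8%, 14.1 to 33.6%) and 42 of 88 in set 2 (47.7%, 36.96 to 58.6%). In knockout cells, found in set 1 alone, they were 35 of 81 (43.2%, 32.2 to 54.7%). Both sets are held to nearly the same share at E7.25 by the rule, so the shares at E6.75 depend on where that score falls in each set. Fewer such cells in the embryo and fewer of them sorted cannot be told apart here.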

How the data were processed

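Single cells were sorted into plates and made into Nextera XT libraries sequenced on an Illumina HiSeq, per the labels' protocols. The deposited table holds unnormalized counts of reads by gene, with a column for each cell. The authors' alignment was with GSNAP and their counting with HTSeq 0.5.3p3 on mm10, per the submitters' processing notes. The sources used here do not give the annotation release or the strand setting. The table held 40912 genes, of which 40254 matched a symbol in GENCODE M21. No molecules were marked, so duplicate reads count, and 0 columns were identical. Depth was 101895 to 14159574 reads per cell, which limits low genes in shallow cells. No cell filter or doublet caller was used.

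Wild type cells numbered 341 at E7.25 (20 high-scoring, 146 other and 7 left out in set 1; 20, 143 and 5 in set 2) and 172 at E6.75. Within a library set, the reads of a class of cells were added up and scaled to CPM by reads on genes. A gene counted as measured at 5 CPM or more over the compared cells of each set. Log2 ratios have 1 CPM added, which understates low genes, and the mean of both sets is their combined value. Library sets differ in depth and in sex-linked reads, and were found in the data. Members and gene lists were chosen with earlier results of these data known. Named genes were Mesp1, the score genes and, per comparison and direction, the 12 with the largest difference in mean log2(CPM + 1) per cell. These needed a 2-fold ratio in both sets, 20 CPM and a read in 25% of cells of the higher group. Mitochondrial, Y-linked and predicted genes and Xist were left out, and 1 gene that met the rule is not reported here. Up to 4 examples came from each list, and genes named beyond these rules (Sox17, Chrd, Utf1, Wnt3a, Spint1, Spint2, Cldn7, Krt18, Ocln, Esrp2 and the like) were chosen after their values were seen. Alternatives included scaling factors from edgeR 4.0.16 (TMM) and DESeq2 1.42.0, which gave no tests. The ratio and calling steps were run on simulated counts with known changes in randomly drawn cells. The choice of cells by score was not simulated.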

Additional observations from a re-analysis of the deposited data

How the results depend on the processing

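Counts of genes past 2-fold in both sets depended on low genes, and are given here as multiples of the counts reported above. High-scoring against other cells gave 0.480 times as many higher and 0.344 times as many lower genes with 10 CPM added, 2.88 and 1.91 times with no filter, 0.293 and 0.441 times at 20 CPM or more, 5.20 and 4.48 times in set 1 alone, and 2.76 and 2.32 times in set 2 alone. Between the stages, higher and lower genes were 0.338 and 0.470 times as many with 10 CPM added, 2.34 and 2.11 times with no filter, 0.303 and 0.460 times at 20 CPM or more, 5.78 and 8.51 times in set 1 alone, and 3.35 and 3.79 times in set 2 alone. Leaving Cdh1 out of the score gave 0.533 times as many higher genes (40), 31 of them among the 75. With E6.75 cells at or above the score of the 20th E7.25 cell, an alternative chosen after seeing the data, 73.7% of the higher and 89 of the 100 lower genes between the stages were shared. Shares of E6.75 cells above the score of the 10th cell were 11.4% (wild type, set 1), 20.99% (knockout) and 14.8% (wild type, set 2), and above that of the 30th cell 35.4% and 59.3% in set 1. The Spry1 ratio between the stages, -1.65, was 0.23 without Cdh1 in the score. The cardiac list median between the stages, 1.31, was -0.32 at 20 CPM or more and -0.50 with E6.75 cells at or above that score. Beyond the change in genes or cells counted, the cause was not tested. No scaling moved the median of all genes by over 0.1. No paired analysis was possible because no result comes from a test and replicate numbers only name cells. Genes under 10 CPM rest on few reads in cells of low depth.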
